A study of Mus musculus with 16 samples.

Results

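The genes that read and erase N6-methyladenosine (m6A) on RNA were examined in mouse embryonic stem cells with and without Mettl14, through histone peaks called at their loci. The members are 10 genes of the 21887 protein-coding genes in the gene table: Ythdf1, Ythdf2, Ythdf3, Ythdc1, Ythdc2, Igf2bp1, Igf2bp2, Igf2bp3, Alkbh5 and Fto. They were chosen by function, and every peak that touched a member's annotated span or the 5 kb on either side of it was counted. Chromatin immunoprecipitation with sequencing (ChIP-seq) had been done for H3K4me3, H3K27ac and H3K27me3. Each mark had 2 libraries of cells labelled Mettl14 Control and 2 of cells labelled Mettl14 CKO, called control and knockout here, which gives 12 peak lists. All groups were C57BL/6 embryonic stem cells grown in serum with LIF, CHIR99021 and PD0325901, inhibitors of GSK3 and MEK. The labels do not say how the knockout was induced, whether a line is a single clone, or whether replicates were separate cultures, so the spread between replicates may be technical. The labels name an H3K4me3 antibody for the H3K27ac libraries too, and the mark in the title was used.

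METTL14 and METTL3 form the core of the nuclear enzyme that writes m6A. Reader proteins then bind the mark: YTHDF1, YTHDF2 and YTHDF3 in the cytoplasm, where they act on translation and decay of the RNA, YTHDC1 in the nucleus, where it acts on splicing, export and chromatin-associated RNA, and YTHDC2, an RNA helicase best known from meiosis. The IGF2BP proteins are RNA-binding proteins of fetal and stem cells that stabilise bound transcripts. ALKBH5 and FTO are demethylases that erase the mark. Of the histone marks, H3K4me3 lies at active or poised promoters, H3K27ac at promoters and enhancers in use, and H3K27me3, the Polycomb mark, over silent genes.

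The promoters of 5 members are shown because they cover the range of H3K4me3 patterns: Ythdf1 was called in all 4 lists, Igf2bp2, Igf2bp3 and Alkbh5 in the knockout lists alone, and Fto had an empty start in all 12 lists. Each is the 300 bases from 250 before to 50 after the transcription start, from RefSeq on GRCm38.p6, the assembly of mm10, written from 5′ to 3′ on the gene's own strand with every CG dinucleotide in capitals.
Ythdf1, chr2:180920887-180921186, minus strand: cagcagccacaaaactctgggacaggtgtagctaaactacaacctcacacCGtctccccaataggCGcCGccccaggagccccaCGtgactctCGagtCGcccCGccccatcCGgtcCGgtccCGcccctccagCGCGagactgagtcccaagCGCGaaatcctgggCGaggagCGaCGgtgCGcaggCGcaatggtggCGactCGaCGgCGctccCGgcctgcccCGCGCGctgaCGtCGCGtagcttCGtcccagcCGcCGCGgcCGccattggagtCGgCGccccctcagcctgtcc
Igf2bp2, chr16:22163250-22163549, minus strand: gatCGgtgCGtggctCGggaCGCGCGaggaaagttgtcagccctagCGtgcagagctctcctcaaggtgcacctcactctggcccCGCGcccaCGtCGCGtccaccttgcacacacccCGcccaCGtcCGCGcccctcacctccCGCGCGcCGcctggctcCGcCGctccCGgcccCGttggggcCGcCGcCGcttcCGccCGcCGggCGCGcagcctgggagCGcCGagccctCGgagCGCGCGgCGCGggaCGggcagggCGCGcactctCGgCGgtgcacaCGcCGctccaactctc
Igf2bp3, chr6:49214905-49215204, minus strand: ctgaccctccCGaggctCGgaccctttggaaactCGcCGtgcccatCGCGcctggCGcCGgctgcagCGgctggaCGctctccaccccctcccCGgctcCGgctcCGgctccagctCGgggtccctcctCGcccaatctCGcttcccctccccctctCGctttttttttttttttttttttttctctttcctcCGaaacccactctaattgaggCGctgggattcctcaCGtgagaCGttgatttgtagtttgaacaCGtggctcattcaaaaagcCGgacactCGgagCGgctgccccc
Alkbh5, chr11:60537433-60537732, plus strand: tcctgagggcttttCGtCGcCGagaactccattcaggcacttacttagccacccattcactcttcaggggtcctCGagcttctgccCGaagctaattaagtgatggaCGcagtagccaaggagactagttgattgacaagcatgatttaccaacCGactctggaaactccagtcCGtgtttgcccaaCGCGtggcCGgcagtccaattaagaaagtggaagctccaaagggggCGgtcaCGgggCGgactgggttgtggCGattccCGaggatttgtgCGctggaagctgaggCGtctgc
Fto, chr8:91313275-91313574, plus strand: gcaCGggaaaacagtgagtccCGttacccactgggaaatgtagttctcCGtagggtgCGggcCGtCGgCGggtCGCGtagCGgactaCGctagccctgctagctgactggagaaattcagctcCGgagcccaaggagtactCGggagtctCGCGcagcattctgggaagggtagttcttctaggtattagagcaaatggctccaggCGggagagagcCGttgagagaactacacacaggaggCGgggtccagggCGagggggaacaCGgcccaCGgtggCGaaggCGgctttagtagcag

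The promoter table held 7 of the 10 members, and all 7 had more CG dinucleotides than the median of 7 over its 32851 promoters. Igf2bp2 had the most, 47 in 300 bases, which is more than 98.6% of the promoters in the table. Alkbh5 had the fewest of the members, 18, and Fto had 23, more than 78.5% of promoters. Ythdf1 had 37, Ythdc1 35, Ythdf2 32 and Igf2bp3 25. The member with no start peak thus had a CG number inside the range of members that were called. The GC box GGGCGG, counted on both strands and overlapping the CG count, was present in 5 of the 7 and in 35.7% of all promoters of that length, and was absent from the Igf2bp3 and Fto windows. The E-box CACGTG, which reads the same on both strands, was present in 2 of the 7, Ythdf1 and Igf2bp3, against 7.15% of all promoters.

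The cells carried the marks of embryonic stem cells. The stem cell markers were 8 (Pou5f1, Nanog, Sox2, Klf2, Klf4, Esrrb, Tdgf1 and Zfp42). Of these, 7 had H3K27ac within 5 kb of the gene in each control list (background 21.4% of protein-coding genes). In each knockout list 8 had it (background 26.3%). In at least 1 list, a looser rule, H3K27ac was called at 0 of 6 feeder fibroblast markers and 1 of 6 primitive endoderm markers (Gata6). By that rule it was called at 5 of 6 trophectoderm markers (Cdx2, Eomes, Elf5, Gata3 and Krt8). Of these, Gata3 alone was called in all 4 lists (background 17.1%). Of all protein-coding genes, 49% had no H3K27ac call in any list. For H3K4me3, all 8 stem cell markers were called in both knockout lists (background 30.4%) and 4 in both control lists (background 4.82%). Called in both knockout lists and no control list (background 15.4%) were 1 stem cell marker, Esrrb, and 1 trophectoderm marker, Eomes. Of the 6 trophectoderm markers, 4 had no H3K4me3 call in any list (background 50.9%). The part of cells other than stem cells in the results was not tested. Whole lists held 2431 to 2859 H3K4me3 peaks in control and 8055 to 8131 in knockout cells, 13520 to 15541 and 15058 to 15271 for H3K27ac, and 6312 to 7203 and 11349 to 11446 for H3K27me3. The H3K4me3 lists were longer in the knockout, as were those of H3K27me3, and read depth and peak heights were not measured, so a gained H3K4me3 call and a longer list cannot be told apart. The H3K27ac lists of the conditions overlapped in length. With 2 lists against 2, the exact two-sided permutation test cannot give a p below 0.333, and no gene could pass a threshold of 0.05.

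More of these genes were called for H3K4me3 in the knockout lists. Both control lists called 3 of the 10 members (background 4.82% of protein-coding genes), and both knockout lists called 9 (background 30.4%). Ythdf1, Ythdf2 and Igf2bp1 were the 3 members called in all lists, a class that holds 4.46% of all genes. Ythdf3, Igf2bp2, Igf2bp3 and Alkbh5 were the 4 called in both knockout lists and no control list, termed knockout-only (background 15.4%). Ythdc1 and Ythdc2 were called in the knockout lists and in control replicate 2 (background 10.5%), and Fto in knockout replicate 2 alone. Called in both control lists and no knockout list were 0 members (background 0.11%). Restricted to genes with H3K4me3 in each knockout list, 4 of 9 members and 50.7% of genes were knockout-only, so the members' share lay near that of other marked genes. In called bases, knockout exceeded control in each pair of lists at 9 members (background 28.4%). Of the 6660 genes called in both knockout lists, 6215 had this order, as did the 9 members so called. Summed over the members, called bases were 2047 and 3622 in control and rose to 15965 and 14080, a log2 ratio of 2.41 between the means, against 2.43 for the windows of all protein-coding genes. Within 1 kb of the gene ends the log2 ratio was 1.84 for the members and 2.60 for all genes, and the difference was not tested. With lists cut to equal length by peak width, 2 members were knockout-only, Igf2bp2 and Igf2bp3, and without control replicate 2 there were 6.

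**Figure D1:**
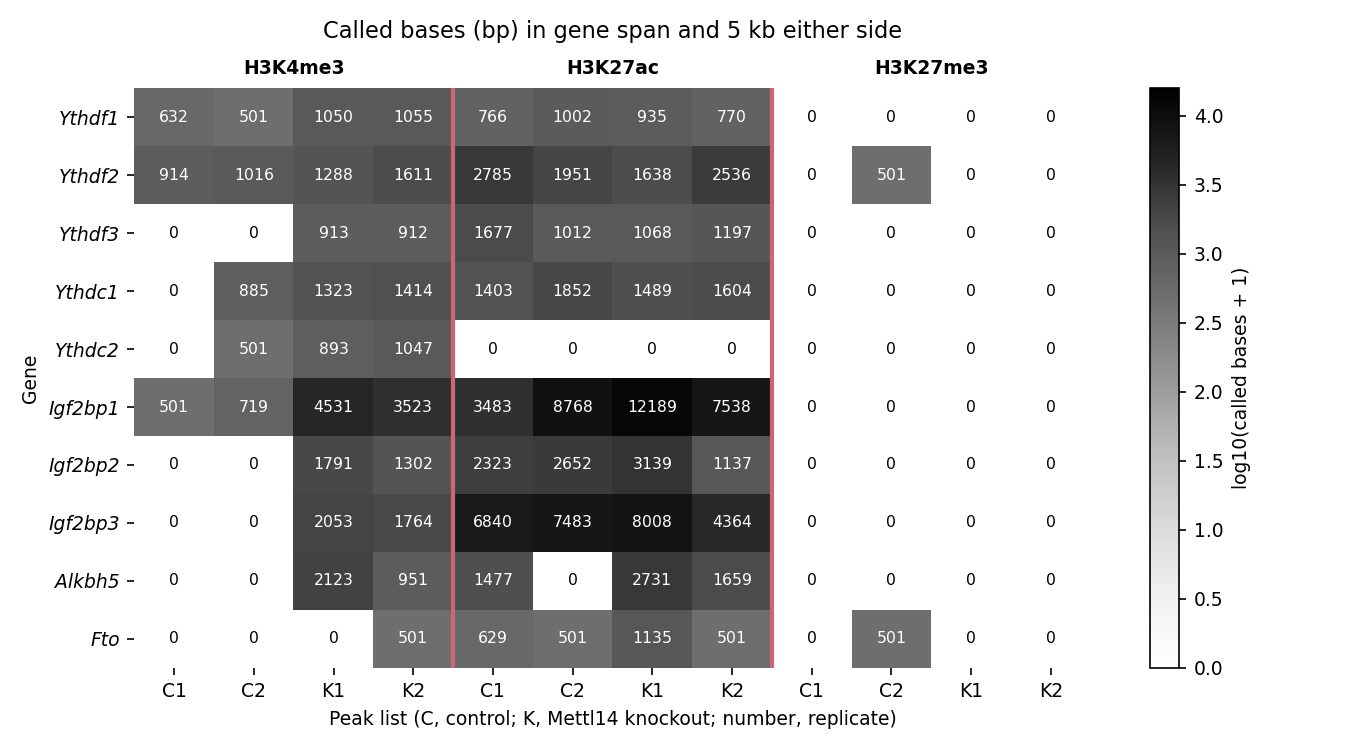
Bases called as peaks in the span and 5 kb either side of each gene (rows) in each of the 12 lists (columns; C, control; K, knockout; shade, log10 of the bases plus 1), with the number of bases in each cell. The H3K4me3 block is filled in both knockout columns for 9 genes and in both control columns for 3, the H3K27ac block is empty at Ythdc2 and at Alkbh5 in control replicate 2, and the H3K27me3 block holds 2 peaks of 501 bp in control replicate 2.

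The cytoplasmic readers Ythdf1 and Ythdf2 had an H3K4me3 start peak in each list, and it was wider in the knockout. At Ythdf1 (mm10 chromosome 2, 180904377 to 180920936, minus strand) the control widths were 632 and 501 bp, and the knockout widths 1050 and 1055 bp. The peak of 501 bp has the minimum width of the lists. The means were 566.5 ± 92.6 bp and 1052.5 ± 3.54 bp (SD, n = 2 each), a 1.86-fold difference without overlap (exact permutation p = 0.333). With lists of equal length the narrower knockout peaks drop out and the order at Ythdf1 turned, to a difference (knockout minus control) of -566.5 bp. At Ythdf2 (chromosome 4, 132184916 to 132212256, minus strand), whose protein recruits RNA decay factors, control widths of 914 and 1016 bp compared with knockout widths of 1288 and 1611 bp, again without overlap (log2 ratio 0.59, exact permutation p = 0.333). Among the 976 genes called in all lists the median log2 ratio of called bases was 1.17. The log2 ratio of Ythdf1, 0.89, and that of Ythdf2 were both below it.

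Ythdf3, the third cytoplasmic reader (chromosome 3, 16183148 to 16217037), lacked an H3K4me3 peak in control cells and had knockout peaks of 913 and 912 bp at the lower-coordinate end of its span. The promoter table used here has no entry for Ythdf3, Ythdc2 and Igf2bp1, so their peaks are placed by the end of the span. Both Ythdf3 peaks were narrower than those of Ythdf1 in the same lists.

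The nuclear reader Ythdc1 (chromosome 5, 86803980 to 86836659, plus strand) had a control H3K4me3 peak of 885 bp in replicate 2 and none in replicate 1, and its knockout peaks were 1323 and 1414 bp wide. At Ythdc2 (chromosome 18, 44827730 to 44889720) the control value was 501 bp in replicate 2 and 0 in replicate 1, with knockout values of 893 and 1047 bp. At each of these genes knockout lay above control in every list (exact permutation p = 0.333). The Ythdc2 knockout peaks began 529 bp and 419 bp inside the lower-coordinate end of the span. Its control peak, of minimum width, began 1051 bp inside, and at equal list length the difference there was -250.5 bp, since no Ythdc2 peak of the knockout was kept.

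In the windows with 5 kb either side, Igf2bp1 gained the most called bases of the members. Within 1 kb of the gene ends its gain, 619.5 bp, was below those of Igf2bp2 (982.5 bp), Alkbh5 (913 bp), Ythdf3 (912.5 bp) and Igf2bp3 (714.5 bp). At equal list length its gain, 1358.5 bp, was below those of Igf2bp3 (1658 bp) and Igf2bp2 (1546.5 bp). Igf2bp1 (chromosome 11, 95957163 to 96005944) had control values of 501 and 719 bp of H3K4me3 and knockout values of 4531 and 3523 bp. The means, 610 ± 154 bp and 4027 ± 713 bp (SD, n = 2 each), differed 6.60-fold (exact permutation p = 0.333). The control peak of 501 bp has the minimum width of the lists, so the ratios are measured in part against that floor. Each control list held 1 peak, at the higher-coordinate end, and the knockout lists held 5 and 3. At that end the knockout peaks, 1884 and 2053 bp wide, were 3.23-fold wider than the control peaks, the largest ratio of the 3 members with a start peak in all lists. A region 23408 bp to 24253 bp inside that end was called in the knockout alone (628 and 842 bp), as was one outside it (chr11:96007109-96008268, 886 and 628 bp). Of 6 separate H3K4me3 regions away from a start in the member windows, these were the 2 that both knockout lists shared, and the other 4 were each called in 1 knockout list.

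Igf2bp2 and Igf2bp3 had no H3K4me3 peak called in either control list. Igf2bp2 (chromosome 16, 22059009 to 22163299, minus strand) had knockout peaks of 1791 and 1302 bp, and Igf2bp3 (chromosome 6, 49085218 to 49215469, minus strand) had start peaks of 1552 and 1764 bp. Knockout replicate 1 held a further Igf2bp3 peak of 501 bp, upstream of the start. The span of the long noncoding RNA gene D030074P21Rik, inside that of Igf2bp3, ends at 49213260. The Igf2bp3 start peak of knockout replicate 1 begins beside it, at 49213319, and which gene it belongs to was not tested. All 4 start peaks were wider than the knockout peaks of Ythdf1, a gene that control lists did call.

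The erasers differed from each other. Alkbh5 (chromosome 11, 60537683 to 60558512, plus strand) had no H3K4me3 peak called in either control list. It had peaks of 1622 and 501 bp in knockout replicate 1 and 1 peak of 951 bp in knockout replicate 2. The wide peaks began 323 bp and 354 bp downstream of the start, so 0 of the 300 promoter bases shown above lay in an H3K4me3 peak. Fto (chromosome 8, 91313367 to 91668433, plus strand) had no H3K4me3 start peak in any list. Its 1 peak, of 501 bp in knockout replicate 2, lay 99086 bp downstream. The span of Fto, 355067 bp, is the longest of the members, and the neighbouring gene Rpgrip1l reaches to 91313291, beside its start. No peak of any mark was called there.

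**Figure D2:**
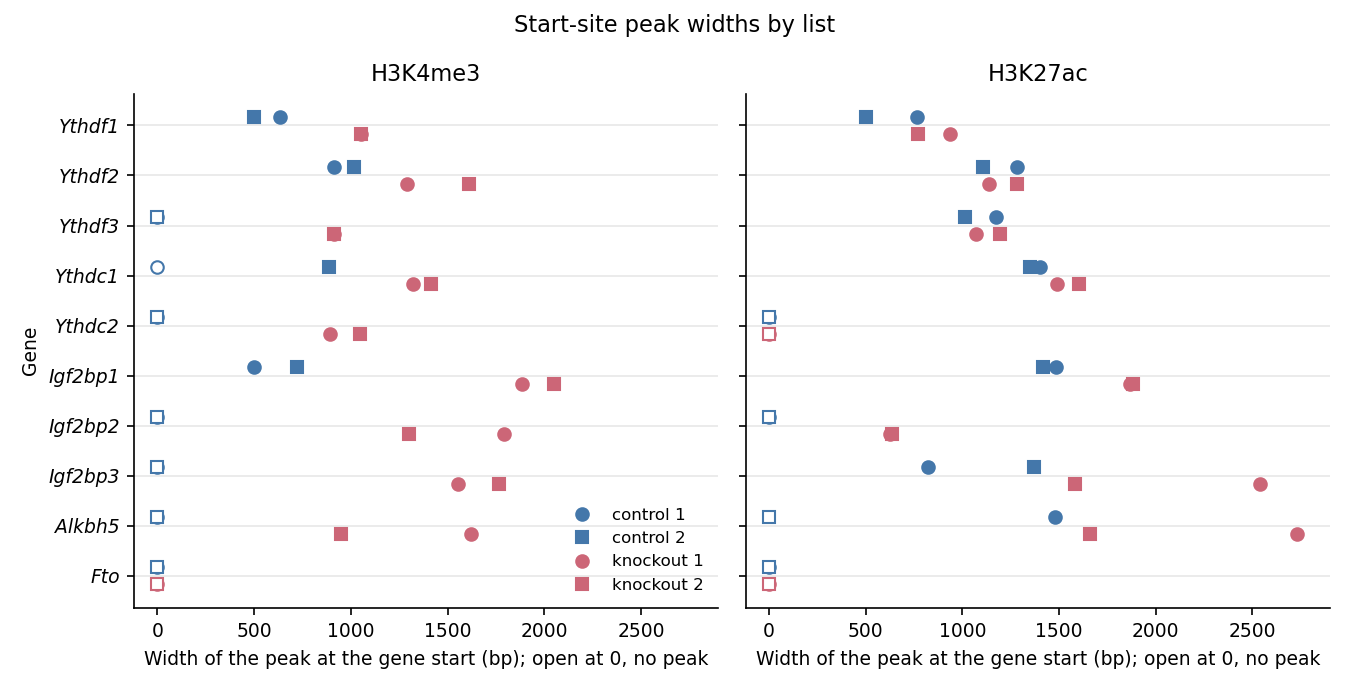
Width in bp of the peak within 1 kb of each gene's start for H3K4me3 (left) and H3K27ac (right), 1 point per list, open at 0 where no peak was called (blue, control; red, knockout; circle, replicate 1; square, replicate 2). For H3K4me3 both knockout points lie to the right of both control points at 9 genes, and for H3K27ac at 6. The share of all genes with this order of widths was not computed.

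H3K4me3 peaks were mostly centred downstream of the start. For the 7 members with an annotated start, 5 start peaks were called in the control lists and all 5 lay wholly downstream of it, with a median centre at 541 bp. In the knockout lists 12 of 13 start peaks had their centre downstream, with a median of 572 bp, and 5 lay wholly downstream. Peaks of the same gene in both replicates were counted separately. The control peaks came from Ythdf1, Ythdf2 and Ythdc1, and the knockout peaks from these and from Igf2bp2, Igf2bp3 and Alkbh5. The medians and counts of the conditions thus cover different genes. Of the 300 promoter bases of Ythdf1, 17 and 0 were called in the control lists and 108 and 130 in the knockout lists. At Igf2bp3 the values were 0 and 0 against 0 and 300, and at Igf2bp2 0 and 0 against 0 and 69. The promoter windows of the last pair of genes were reached in knockout replicate 2 alone.

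**Figure D3:**
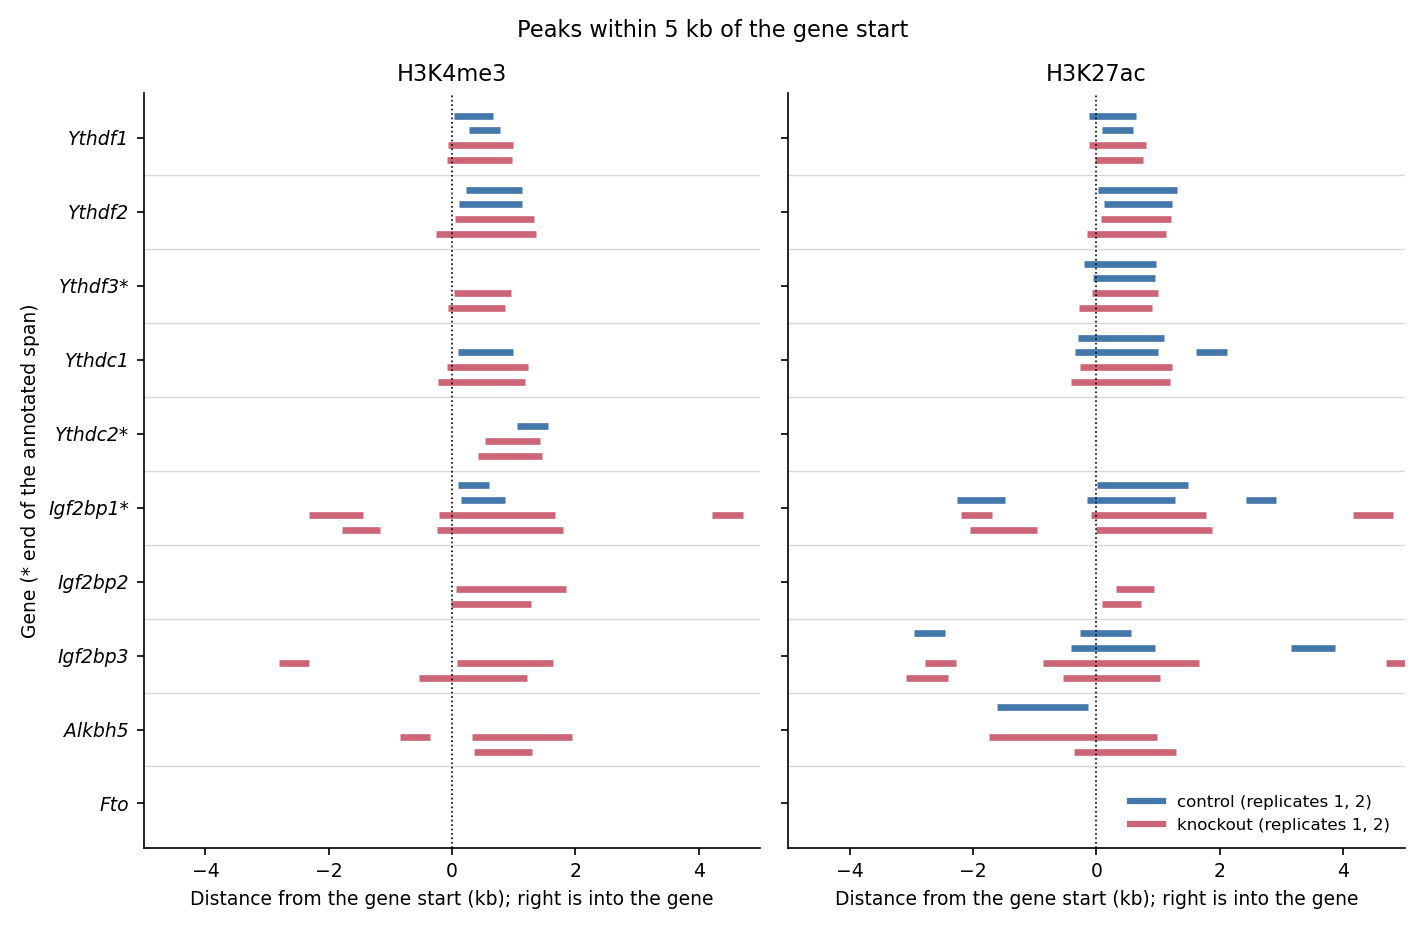
Peaks within 5 kb of each gene's start, drawn to scale as distance in kb, 1 line per list (blue, control replicates 1 and 2; red, knockout replicates 1 and 2); genes with an asterisk are measured from an end of the annotated span. Most bars lie to the right of 0, inside the gene, and the Fto row is empty in both panels.

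H3K27ac was present at most members in both conditions. With the 5 kb windows, 8 of 10 members were called in all 4 lists (background 17.1%), Alkbh5 in 3 lists (called in both knockout lists and 1 control list, background 6.23%) and Ythdc2 in none (background 49%). Knockout-only members numbered 0 (background 2.93%), as did control-only members (background 1.03%). Called bases over all members were 21383 and 25221 in the control lists and 32332 and 21306 in the knockout lists, so the lists of the conditions overlapped, with a log2 ratio of 0.20 between the means. For the windows of all protein-coding genes it was 0.28. Without knockout replicate 1 the ratio of the members was -0.13, so its sign rests on 1 library. In called bases per gene, knockout exceeded control in every list at 1 member, Alkbh5 (background 10%).

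Of the 8 members with an H3K27ac start peak, 6 had wider values in each knockout list than in either control list: Ythdf1, Ythdc1, Igf2bp1, Igf2bp2, Igf2bp3 and Alkbh5. The share of all genes with this order of start widths was not computed, so the count has no background. For called bases within 1 kb of the gene ends, a different measure, both knockout lists exceeded both control lists at 7.32% of all genes. Among the 1513 genes called there in all 4 lists, 72.6% had more called bases in the knockout, with a median log2 ratio of 0.23. The 6 members so called had a median of 0.11, and 5 of them were higher in the knockout. Among the YTH readers, Ythdf2 had control widths of 1282 and 1105 bp and knockout widths of 1137 and 1282 bp. Ythdf3 had control widths of 1176 and 1012 bp and knockout widths of 1068 and 1197 bp. The conditions overlapped at these genes, where both knockout lists held more called H3K4me3 bases than either control list. Ythdf1 had control widths of 766 and 501 bp, the latter the minimum width, and knockout widths of 935 and 770 bp. The difference was 1.35-fold (exact permutation p = 0.333). Ythdc1 had 1403 and 1351 bp in control with 1489 and 1604 bp in knockout cells, a 1.12-fold difference (exact permutation p = 0.333). The conditions did not overlap at Ythdf1 and Ythdc1, though at each the gap between them was smaller than the spread within one of the conditions. Ythdc2 had no H3K27ac peak in any list, and was the one member with H3K4me3 in each knockout list and no H3K27ac.

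All 3 IGF2BP genes were among those 6. Igf2bp1 had control widths of 1483 and 1417 bp and knockout widths of 1866 and 1883 bp, a 1.29-fold difference (exact permutation p = 0.333). Igf2bp3 had control widths of 820 and 1371 bp and knockout widths of 2538 and 1580 bp, a 1.88-fold difference (exact permutation p = 0.333). At Igf2bp3 the gap between the conditions was smaller than the spread within either of them. Igf2bp2 lacked a start peak in control cells and had knockout peaks of 626 and 636 bp. At its start Igf2bp2 was thus knockout-only for H3K4me3 and H3K27ac alike, although peaks inside the gene placed it among members with H3K27ac in all lists. Counted within 1 kb of either end of the span, 1 member was knockout-only for H3K27ac (background 2.88%), and called bases in knockout exceeded those in control in every list at 4 members, Ythdf1, Igf2bp2, Igf2bp3 and Alkbh5 (background 7.32%). Igf2bp1 was not among them, with a difference in those windows of -1 bp. Of the 3155 genes called for H3K27ac in both knockout lists in those windows, 1603 had this order, a far larger share than the 7.32% of all genes.

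Alkbh5 had a control H3K27ac peak of 1477 bp in replicate 1 and none in replicate 2, and its knockout peaks measured 2731 and 1659 bp. Here too the gap between the conditions was smaller than the spread within either of them. The control peak ended upstream of the start, and the knockout peaks crossed it, reaching 989 bp and 1296 bp downstream. All 300 promoter bases of Alkbh5 were inside H3K27ac peaks in both knockout lists, against 123 and 0 in control. No H3K27ac region of Fto was called in all 4 lists. A site 109598 bp to 110231 bp downstream of the Fto start was called in 3 lists, at 629 bp in control replicate 1 and at 634 and 501 bp in the knockout, while control replicate 2 had its 1 Fto peak elsewhere, 287428 bp downstream.

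Away from the starts the windows held 36 separate H3K27ac regions, of which 26 were called in 1 list and 2 in all 4. The 3 Igf2bp genes held 25 of the 36. Some of those counted for Igf2bp3 touch other genes. The regions chr6:49209757-49210257 and chr6:49211078-49211800 lie in the span of D030074P21Rik, and chr6:49173370-49175706 overlaps the pseudogene Gm18010. At Igf2bp1 a region inside the gene (chr11:95979656-95986302) was called in all 4 lists, with control values of 1499 and 4209 bp and knockout values of 6421 and 2311 bp, which overlapped. The H3K4me3 region that both knockout lists called inside Igf2bp1 lay within it. A second region (chr11:95989778-95992145) was called in the knockout alone (1995 and 2266 bp), the only H3K27ac region away from a start with that pattern.

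The other region called in all 4 lists lay in the far part of Igf2bp3 (chr6:49096978-49101790), where the annotated span of Malsu1, a mitochondrial ribosome assembly factor, overlaps that of Igf2bp3. Control values there were 2853 and 3886 bp and knockout values 834 and 1324 bp, so control exceeded knockout in every list. It was the one region of these windows, of any mark, in which that held, and it was singled out after its values were seen. At Igf2bp2 a region inside the gene (chr16:22138202-22140707) had control values of 820 and 2007 bp, 2012 bp in knockout replicate 1 and no peak in knockout replicate 2.

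**Figure D4:**
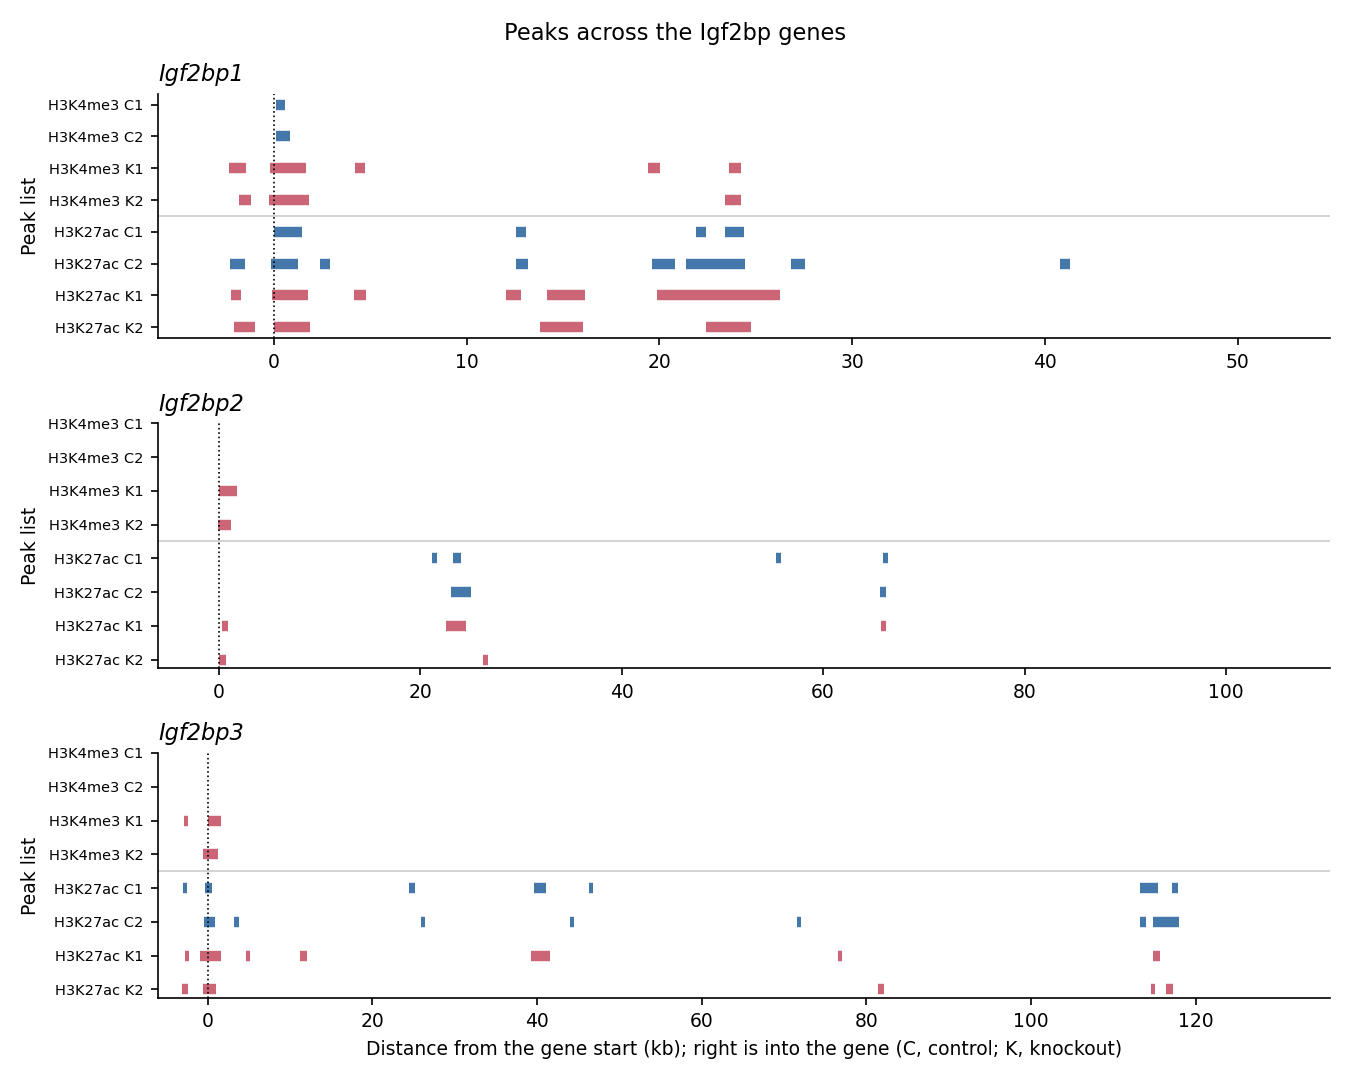
H3K4me3 and H3K27ac peaks across Igf2bp1, Igf2bp2 and Igf2bp3, drawn to scale as distance in kb from the start (for Igf2bp1, from the higher-coordinate end of the span), 1 line per list (blue, control; red, knockout). Start peaks of H3K4me3 appear in the control lists at Igf2bp1 alone, and the H3K27ac region at the right of the Igf2bp3 panel covers more bases in the control lists.

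H3K27me3 calls were nearly absent from the readers and erasers. Knockout lists called 0 of 10 members (background 17% called in both), and 0 were knockout-only (background 3.06%). The 2 calls in the windows were peaks of 501 bp, the minimum width in these lists, in control replicate 2, inside Ythdf2 and inside Fto. The Fto peak lay 48897 bp downstream of the start, and control replicate 1 had neither. Of all protein-coding genes 67.4% had no H3K27me3 call in any list, against 8 of 10 members. The count with no call and the knockout-only count thus lay near the background, and no difference of the members from other genes was tested.

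The other m6A genes were counted in the same windows. Of the 8 writer complex genes, 6 were knockout-only for H3K4me3 (background 15.4%), Mettl3, Mettl14, Wtap and Virma among them. Rbm15 was called in all lists (background 4.46%) and Cbll1 in both knockout lists and 1 control list (background 10.5%). Among all genes with H3K4me3 in each knockout list, 50.7% were knockout-only. Of 8 other proposed m6A-binding proteins, 2 were knockout-only (Rbmx and G3bp1, background 15.4%) and Prrc2a was called in all lists (background 4.46%). The other 5 were called in both knockout lists and 1 control list (Hnrnpa2b1, Hnrnpc, Fmr1 and Elavl1 among them, background 10.5%). Of 7 decay partners of YTHDF2, 6 were called in both knockout lists (background 30.4%), among them the deadenylase subunits Cnot1, Cnot2, Cnot3 and Cnot7. Of 7 other members of the AlkB enzyme family, 2 (Alkbh1 and Alkbh2) were called in both knockout lists, against 30.4% of all genes. Some of these H3K4me3 calls depended on the window. Within 1 kb of the gene ends Mettl3, Cnot7 and Cnot8 had no call in any list (background 61.4%). There 6 writers were knockout-only (background 13.5%), Rbm15 among them, and 4 decay partners were called in both knockout lists (background 24%). Which genes the peaks farther from the ends belong to was not tested. For H3K27ac in the windows with 5 kb either side, 3 writers (Wtap, Rbm15 and Rbm15b) were called in all lists (background 17.1%) and 1, Mettl3, was knockout-only (background 2.93%). For H3K27me3 the writers had 0 calls in any list, as did 67.4% of all genes. The lists hold no RNA or protein of Mettl14, so its loss was not checked here. These lists were chosen by function, and their difference from other genes was not tested.

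**Figure D5:**
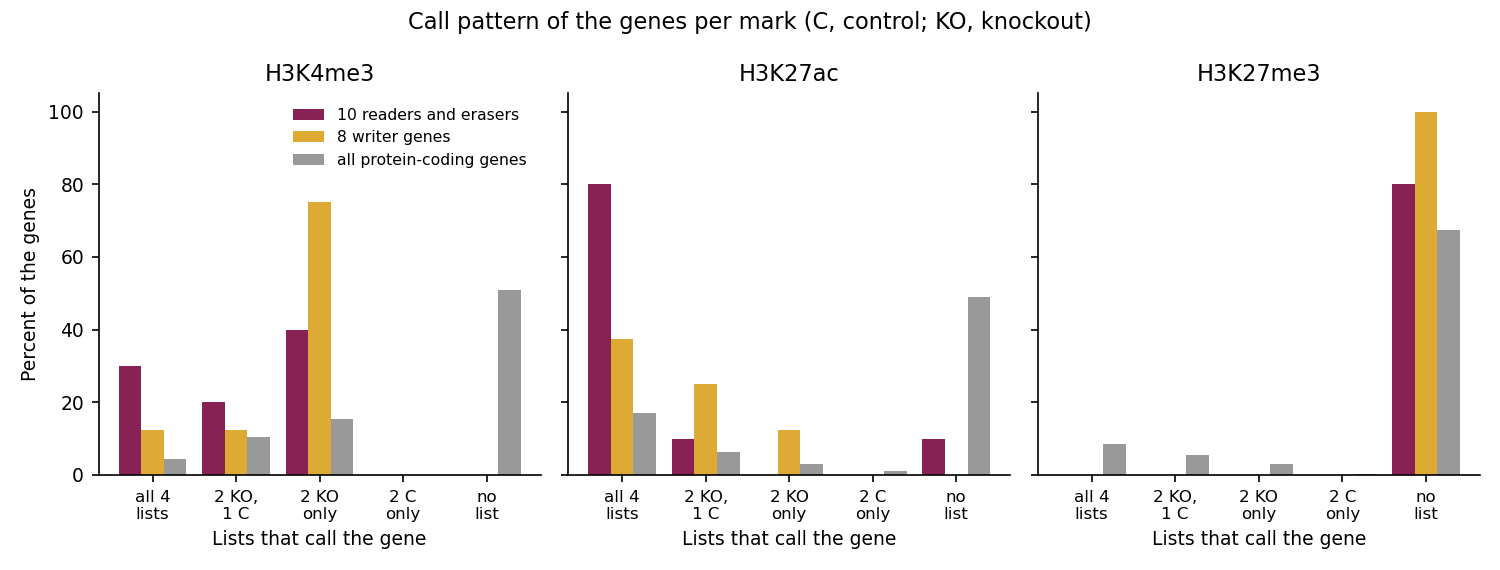
Percent of the 10 readers and erasers, the 8 writer complex genes and all protein-coding genes in each call pattern, per mark, with windows of the gene span and 5 kb either side; other patterns are not drawn. For H3K4me3 the knockout-only bars hold 4 of 10 readers and erasers, 6 of 8 writers and 15.4% of all genes.

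The call pattern over all 12 lists was common for some members and rare for others. Ythdf3, Igf2bp2 and Igf2bp3 shared theirs, H3K4me3 in the knockout lists alone with H3K27ac in all lists, with 775 other genes each. Ythdf1 and Igf2bp1 shared theirs with 589 genes, Ythdc1 with 474 and Alkbh5 with 229. Ythdc2, with H3K4me3 alone, shared its pattern with 37 genes, Ythdf2 with 5 and Fto with 3, and the last pair each had a single H3K27me3 call, in control replicate 2. The genes most like each member in called bases, by the mean absolute difference of log2(bases + 500) over the 12 lists, were Dnajc11 and Rnf149 for Ythdf1 (0.063 and 0.098), Gtf2e1 and Rabl3 for Ythdf3 (0.064 each) and Gpt2 and Sephs1 for Ythdc1 (0.052 and 0.081). For Ythdf2 they were Matr3 and Cacnb1, for Ythdc2 Vps29 and Med30, for Igf2bp2 Ctnna1 and Pcif1, for Igf2bp3 H1f2 and Slc25a12, for Alkbh5 Ppp1r15a and H1f5, and for Fto Erich1 and Syne1. Igf2bp1 had the least close neighbours, Trim71 and Nsd1 (0.25 and 0.26).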

How the data were processed

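The submitters' processing notes name HOMER, SAMtools, Bowtie2 2.4.1, Trimmomatic 0.38, CASAVA and build mm10. Peak caller settings, and whether inputs and spike-in chromatin were used, were not given in the sources used here. The authors deposited 1 BED list per library. The deposited score column is 1 for every peak and was not used. Positions and widths are the only measurements, the narrowest peak is 501 bp, and depth is unknown, so no counting interval is given. Sample titles gave mark, genotype and replicate. The 4 input libraries were not analysed here.

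Gene spans came from a RefSeq table of GRCm38.p6, which gives no exons. Starts and strands came from the RefSeq promoter table, which held 7 of the 10 members. A gene was called in a list when at least 1 bp of a peak lay in its span or 5 kb either side. Called bases are the peak bases in that window. A start peak lies within 1 kb of the start. No peak list was normalized. The test per gene was an exact permutation test, two-sided, with 6 possible assignments. For H3K27me3, with 0 called bases in both knockout lists, the summed difference is in bp and not a log2 ratio, a departure from the plan. Counts over members get no p. Named genes were all members, the 2 most alike genes per member, up to 4 per class of the pathway lists, and marker genes. Of the genes within 5 kb of members, Malsu1, Rpgrip1l, D030074P21Rik and Gm18010 are named. The rest, pseudogenes and noncoding genes, are not. Members and lists were chosen with earlier results of these data known. The counting was tested on simulated data with planted peaks. Python 3.11.15, numpy 2.4.6 and pandas 2.3.3 were used.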

Additional observations from a re-analysis of the deposited data

How the results depend on the processing

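For H3K4me3, 4 members were knockout-only as reported, 4 or 5 with 0 kb or 10 kb flanks, windows of 1 kb at the ends, peak centres, without peaks of minimum width or in the wider 50% of each list, and 2 (Igf2bp2 and Igf2bp3) with lists of equal length. Igf2bp2 and Igf2bp3 were among them in each of these settings. At equal length the knockout lists keep no peak under 1149 bp while the control lists keep peaks of 501 bp. This reversed Ythdf1, where called bases (knockout minus control) became -566.5 bp, and Ythdc2, -250.5 bp. The log2 ratio of summed called bases, 2.41, was 1.84 at gene ends and 1.63 at equal length. Without single lists there were 4 to 6 knockout-only members and ratios of 2.05 to 2.88. Fto joined them without knockout replicate 1, and Ythdc1 and Ythdc2 without control replicate 2.

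For H3K27ac, 0 members were knockout-only, and 1 with 0 kb flanks (Alkbh5) or at gene ends (Igf2bp2). Leaving out 1 list gave 0 to 1 and log2 ratios of -0.13 to 0.47. For H3K27me3, leaving out 1 list gave 0 knockout-only members and a difference in called bases of -1002 bp to 0 bp. Labels give replicate numbers and no shared source. Over genes, same-numbered lists did not deviate together (correlations of 0.0014, -0.0048 and -0.0066 for H3K4me3, H3K27ac and H3K27me3). Pairing lists by number as a replicate block gave ratios of 2.46 for H3K4me3 and 0.18 for H3K27ac. Of 110 values per mark for single genes under other settings, 90 (H3K4me3), 102 (H3K27ac) and 109 (H3K27me3) stayed within the spread of the replicates. With 2 lists per condition, values with 1 list left out stay within that spread by construction. Most members had no H3K27me3 call in any list, so their values had little room to move. These counts are therefore no measure of robustness for H3K27me3 or for left-out lists.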
